A study of Mus musculus with 17 samples.

Results

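The 9 genes described here encode secreted signals of the transforming growth factor beta (TGF-beta) family, a protein that binds them, and transcriptional targets of the pathway. They are the ligand genes Tgfb1, Tgfb2, Tgfb3, Inhba and Bmp4, the antagonist gene Fst, and the target genes Id1, Id2 and Id3. They were picked by gene symbol, with earlier results of these data known, and all 9 were present among the 15062 genes of the count table. RNA was sequenced in 17 libraries of C2C12, an established mouse myoblast line grown in medium with serum, which forms muscle fibres when serum is withdrawn. Each line carried the empty pMSCV vector, SRF or a fusion of SRF with FOXO1, ICA1L, PDGFRB or RELA, written SRF-FOXO1 and so on. SRF, serum response factor, is a regulator of muscle and cytoskeletal genes that binds DNA. The SRF-PDGFRB line had 2 libraries and each of the other 5 lines 3. All groups share the C2C12 background, so the pMSCV line serves as the control for the vector and the SRF line as the control for SRF alone. The labels do not state whether a line is a clone or a pool of infected cells, nor whether replicates came from separate cultures. The p-values below therefore measure the spread between these libraries, which may be technical.

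Ligands of this family bind pairs of receptor kinases at the cell surface, which phosphorylate Smad proteins that move to the nucleus with the shared partner Smad4. TGF-beta and activin act through Smad2 and Smad3, whereas bone morphogenetic proteins (BMPs) act through Smad1, Smad5 and Smad9. Both branches are known to hold back the differentiation of myoblasts, and BMPs can turn C2C12 cells towards bone. The Id proteins are classical BMP targets: they bind E proteins, the partners that MyoD needs on DNA, and so keep myogenic factors inactive. Follistatin, the product of Fst, captures activin and several BMPs outside the cell.

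On the mouse build GRCm38, with the GENCODE M21 annotation, all 9 are protein-coding genes. Tgfb1 lies at chr7:25687002-25705077, Tgfb2 at chr1:186622792-186705989 and Tgfb3 at chr12:86056745-86079041. Inhba lies at chr13:16011851-16031621, Fst on the same chromosome at chr13:114452290-114458951 and Bmp4 at chr14:46383520-46390669. Id1 lies at chr2:152736251-152737410, Id2 at chr12:25093799-25097140 and Id3 at chr4:136143497-136145755. Genes on the opposite strand overlap Tgfb2, Tgfb3, Inhba, Fst and Bmp4, and no annotated gene overlaps Tgfb1 or the Id genes. The kit keeps strand, but whether counting used it is not given in the sources used here, so reads of those 5 genes and of their opposite-strand partners may not be separated.

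Promoter windows of 250 bases before the transcription start were found in the RefSeq table (GRCm38.p6) for 6 of the 9 genes. Both strands were searched for 4 motifs: the BMP-response core GGCGCC, the Smad-binding element GTCTG or its complement CAGAC, the E-box CANNTG bound by MyoD with E proteins, and the CArG box bound by SRF. The BMP-response core was in 1 window, Id2, at 231 bases before the start, and 9.54% of the 27025 windows in the table held it. The Smad-binding element matched 2 times in Tgfb2 and 2 times in Id3, against 42.1% of all windows with a match. All 250 bases of the Id3 window lie in annotated exons of Id3 itself. E-boxes were in Bmp4 (3 matches), Tgfb2 (1) and Id2 (1), against 66.0% of all windows. The CArG box, held by 378 of all windows, matched none of the 6, which says only that these letters are not in the windows read. A few windows are printed 5′ to 3′ because the results turn on these genes: the ligand genes Inhba and Bmp4, and Id2 as the Id gene with the BMP-response core. Capitals mark motif matches.
Inhba, chr13:16011601-16011850, plus strand: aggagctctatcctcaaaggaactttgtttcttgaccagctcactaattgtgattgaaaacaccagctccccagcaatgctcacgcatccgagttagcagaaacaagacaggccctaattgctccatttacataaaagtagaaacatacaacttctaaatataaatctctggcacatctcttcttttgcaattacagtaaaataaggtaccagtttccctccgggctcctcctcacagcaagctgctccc
Bmp4, chr14:46390670-46390919, minus strand: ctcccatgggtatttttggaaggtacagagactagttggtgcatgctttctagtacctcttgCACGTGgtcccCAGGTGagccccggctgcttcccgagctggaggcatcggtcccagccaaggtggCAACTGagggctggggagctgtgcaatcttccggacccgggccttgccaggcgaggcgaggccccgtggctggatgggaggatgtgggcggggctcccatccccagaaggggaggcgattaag
Id2, chr12:25096254-25096342, minus strand: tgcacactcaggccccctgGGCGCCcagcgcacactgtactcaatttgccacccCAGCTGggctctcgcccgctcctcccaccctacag
The Id2 stretch is the 89 bases of its window that lie outside the gene's annotated exons, within an intron of a longer transcript model. In it the first run of capitals is the BMP-response core and the second an E-box, and the capitals in the Bmp4 window are its 3 E-boxes.

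Library totals lay between 20901442 and 23543734 counts, and values are in CPM (counts scaled to a common library size) scaled by TMM (the trimmed mean of M values). Srf stood at 678 to 1673 CPM in the SRF libraries and at 66.6 to 93.8 CPM in pMSCV. In the fusion lines it was between 70.5 and 279 CPM, and how far reads of a fusion construct count towards the mouse gene is not known. All 5 myoblast markers (Myod1, Myf5, Cdh15, Itga7, Des) were in the table. Their summed level was 1487 to 1741 CPM in pMSCV, 719 to 1290 in SRF, 223 to 294 in SRF-FOXO1, 456 to 1056 in SRF-ICA1L and 380 to 700.0 in SRF-RELA. The SRF-PDGFRB libraries were far apart, at 231 and 1982 CPM, and their 6 myotube markers summed to 9.23 and 453 CPM. Of 3 markers each for bone, endothelial and macrophage cells, 1 was in the table and no group reached 3 CPM for it. No adipocyte marker of 3 was in the table.

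Per kilobase of exon, Id1 was the most abundant of the 9 transcripts, with a mean of 120.3 CPM per kb over the 17 libraries and a range of 33.3 to 287. Id3 followed with a mean of 83.3 (45.3 to 200.5) and Id2 with 34.8 (20.5 to 47.2). Among the ligands, Bmp4 had a mean of 28.4 CPM per kb (4.30 to 105), Tgfb3 22.6 (9.39 to 58.1), Tgfb1 15.9 (11.0 to 21.03), Inhba 15.6 (4.35 to 50.1) and Tgfb2 4.65 (1.17 to 8.72). Fst stood at 4.72 (1.48 to 10.0). Neighbours in this order overlapped in range, so the order holds for the means and not for every library. As a ratio of highest to lowest, Bmp4 had the widest span among the ligands and Tgfb1 the narrowest.

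**Figure D1:**
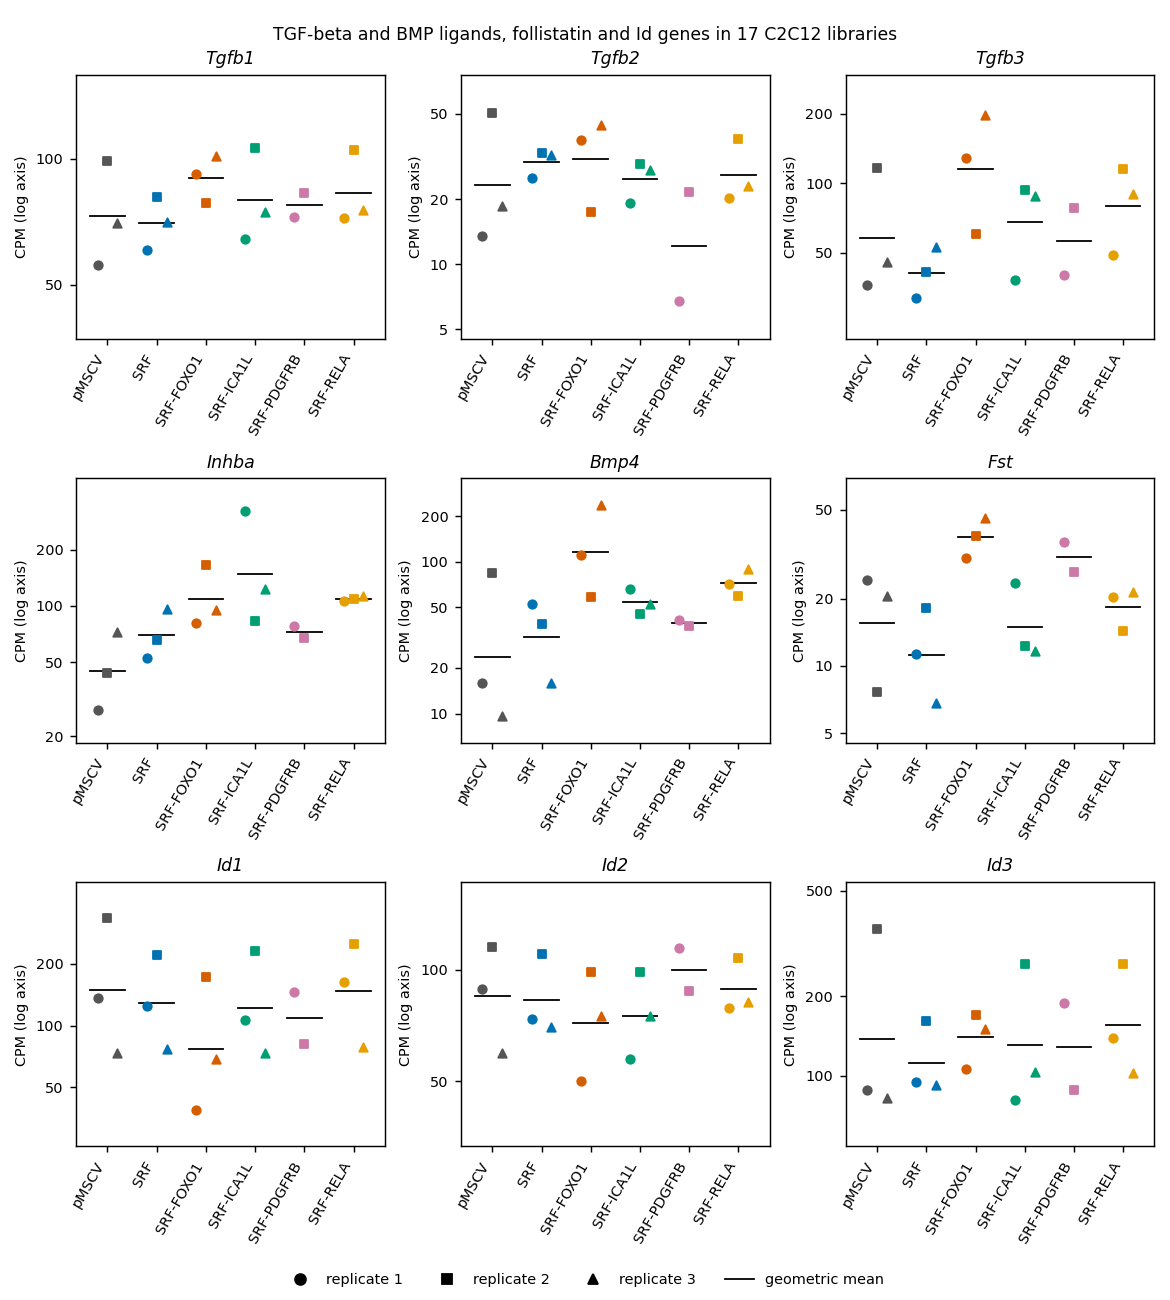
CPM of the 9 genes on a log axis in each of the 17 libraries (circle, square and triangle for replicates 1, 2 and 3), with the geometric mean of each group as a line. Inhba in SRF-FOXO1, SRF-ICA1L and SRF-RELA lies above all 3 pMSCV libraries, and the Id genes spread by replicate number within most groups.

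Whether any of the 6 groups differed was tested for each gene with edgeR's quasi-likelihood test, adjusted by Benjamini-Hochberg over all 15062 genes and called at an adjusted p under 0.05. Of the 9 genes, 0 were called, as were 0.0797% of all genes. At an unadjusted p under 0.05 there were 2, Inhba (adjusted p = 0.436) and Fst (adjusted p = 0.408), against 8.68% of all genes. DESeq2 called the same 2 genes, with 4.22% of all genes called. In bulk RNA, fewer cells that express a gene and less RNA per cell cannot be told apart.

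Compared with pMSCV one line at a time, edgeR called 0 of the 9 genes in each of the 5 lines. In SRF, 0.00664% of all genes were called, no member had an unadjusted p under 0.05 (3.34% of all genes had) and DESeq2 called 0 members (0.0266% of all genes). In SRF-FOXO1, 0.710% of all genes were called, 3 members had an unadjusted p under 0.05 (20.9% of all genes) and DESeq2 called 1, Bmp4 (9.07% of all genes). In SRF-ICA1L, 0% of all genes were called, 1 member had an unadjusted p under 0.05 (6.23% of all genes) and DESeq2 called 1, Inhba (0.318% of all genes). In SRF-PDGFRB, 0.0199% of all genes were called, no member had an unadjusted p under 0.05 (7.70% of all genes) and DESeq2 called 0 members (0.475% of all genes). In SRF-RELA, 0% of all genes were called, 1 member had an unadjusted p under 0.05 (8.05% of all genes) and DESeq2 called 0 members (0.770% of all genes).

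Compared with the SRF line, edgeR again called 0 of the 9 genes in each fusion. In SRF-FOXO1, 0.00664% of all genes were called, 3 members had an unadjusted p under 0.05 (19.2% of all genes) and DESeq2 called 2, Tgfb3 and Fst (4.30% of all genes). In SRF-ICA1L, 0% of all genes were called, 1 member, Inhba, had an unadjusted p under 0.05 (1.56% of all genes) and DESeq2 called 0 members (0.0133% of all genes). In SRF-PDGFRB, 0.0531% of all genes were called, 1 member, Fst, had an unadjusted p under 0.05 (5.03% of all genes) and DESeq2 called 0 members (0.386% of all genes). In SRF-RELA, 0.00664% of all genes were called, no member had an unadjusted p under 0.05 (3.21% of all genes) and DESeq2 called 0 members (0.0599% of all genes). The comparisons with one control share that control's 3 libraries.

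**Figure D2:**
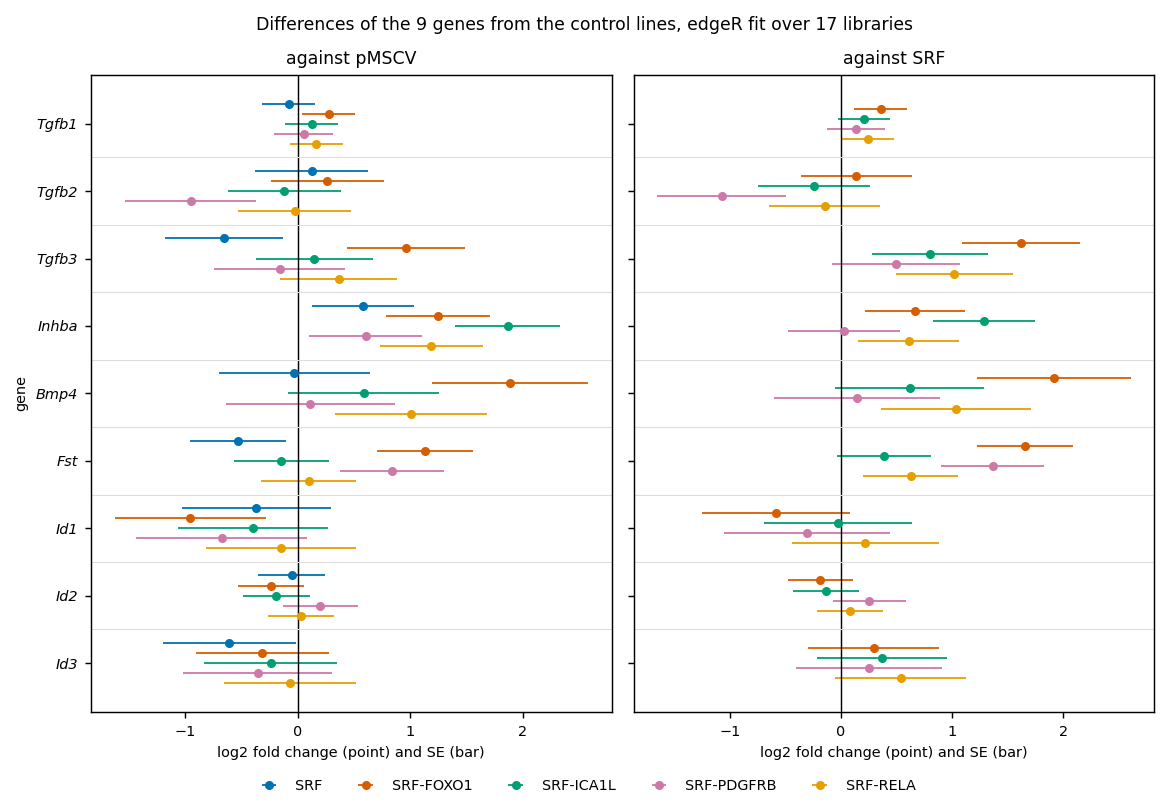
Log2 fold changes (points) with their standard errors (bars) of the 9 genes against pMSCV (left) and against SRF (right), coloured by line. Inhba against pMSCV (1.87 in SRF-ICA1L) and Bmp4 and Fst in SRF-FOXO1 lie farthest above 0, and none of these passed the adjusted threshold of 0.05 in edgeR.

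Inhba encodes the beta-A subunit, of which activin A is the dimer. It stood at 27.8, 43.8 and 72.4 CPM in pMSCV replicates 1, 2 and 3, and at 52.8, 65.6 and 96.7 CPM in SRF. The SRF-FOXO1 libraries had 80.7, 166 and 94.5 CPM and the SRF-RELA libraries 106, 109 and 113. All 6 of these lay above the highest pMSCV library, and the SRF-RELA values were the most alike of any group. SRF-ICA1L had 320.3, 82.6 and 122 CPM, so replicate 1 stood far above the rest, yet all 3 also exceeded pMSCV. SRF-PDGFRB, with 78.4 and 67.5 CPM, overlapped pMSCV and SRF.

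Against pMSCV, the log2 fold change of Inhba was 1.87 (SE 0.47, adjusted p = 0.587) in SRF-ICA1L. Without SRF-ICA1L replicate 1 it was 1.08 (adjusted p = 0.937). DESeq2 called Inhba in this line (1.86, adjusted p = 0.0289), and blocking on replicate number in 12 libraries, as described below, edgeR gave 1.86 (adjusted p = 0.0827). In SRF-FOXO1 the value was 1.25 (SE 0.46, adjusted p = 0.149) and in SRF-RELA 1.19 (SE 0.46, adjusted p = 0.525). With only SRF-RELA and pMSCV fitted and replicate number as a block, Inhba was called in SRF-RELA (1.29, adjusted p = 0.0481, with 2.98% of all genes called). In the 12 libraries with the block it was not called there (1.23, adjusted p = 0.161). The fit of SRF-ICA1L and pMSCV alone, with the block, gave 1.66 (adjusted p = 0.380, with 0.136% of all genes called). SRF (0.58, SE 0.45, adjusted p = 0.990) and SRF-PDGFRB (0.60, SE 0.50, adjusted p = 0.871) gave smaller values, which were 0.30 and 0.33 without pMSCV replicate 1, and 1.001 and 1.03 without pMSCV replicate 3. SRF without its replicate 3 also gave 0.30. Against SRF, the values were 1.29 in SRF-ICA1L (SE 0.46, adjusted p = 0.9998), 0.67 in SRF-FOXO1 (SE 0.45, adjusted p = 0.403) and 0.61 in SRF-RELA (SE 0.45, adjusted p = 0.975). Leaving out SRF-ICA1L replicate 1 gave 0.52 for the first, and leaving out SRF-FOXO1 replicate 2 gave 0.29 for the second.

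Tgfb1, a TGF-beta ligand made in many tissues, spanned the narrowest range of the ligands as a ratio of highest to lowest. It ranged from 55.7 to 99.0 CPM in pMSCV, from 60.7 to 81.2 in SRF, and from 64.2 to 106 over the 11 libraries of the 4 fusion lines. All groups overlapped with pMSCV and with SRF.

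Tgfb2, a ligand known from embryonic tissues, stood at 13.5, 50.5 and 18.6 CPM in pMSCV, so replicate 2 was apart from the other two. SRF had 25.1, 32.7 and 32.3 CPM, whereas SRF-PDGFRB had 6.80 and 21.7, both below all 3 SRF libraries. The log2 fold change of SRF-PDGFRB against SRF was -1.07 (SE 0.58, adjusted p = 0.910), and against pMSCV it was -0.95 (SE 0.58, adjusted p = 0.774). These values rested on single libraries: they were -2.14 and -2.02 without SRF-PDGFRB replicate 2, and -0.48 and -0.36 without SRF-PDGFRB replicate 1. Against pMSCV the value was -0.18 without pMSCV replicate 2. The SRF-PDGFRB libraries also stand far apart in muscle markers, as given above, and the part of that in these values was not tested. SRF-FOXO1, SRF-ICA1L and SRF-RELA ranged between 17.4 and 44.1 CPM.

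Tgfb3 is the third TGF-beta ligand. In SRF it stood at 31.8, 41.1 and 52.7 CPM, while SRF-FOXO1 had 128, 60.2 and 196.7, all above the SRF line. In pMSCV it stood at 36.1, 116 and 45.7 CPM, and SRF-FOXO1 overlapped that range. The log2 fold change in SRF-FOXO1 was 1.62 against SRF (SE 0.53, adjusted p = 0.194) and 0.96 against pMSCV (SE 0.52, adjusted p = 0.310). DESeq2 called the first of these (1.63, adjusted p = 0.0479). Against pMSCV, leaving out pMSCV replicate 2 gave 1.65, and leaving out SRF-FOXO1 replicate 3 gave 0.52. SRF-RELA had 48.8, 116 and 89.99 CPM, a log2 fold change of 1.02 against SRF (SE 0.53, adjusted p = 0.975).

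Bmp4, a ligand of the BMP branch, had the largest log2 differences of the 9 genes. It stood at 16.0, 84.0 and 9.67 CPM in pMSCV, so replicate 2 was several times higher than the other two. SRF had 52.9, 38.7 and 15.9 CPM. SRF-FOXO1 had 111, 58.4 and 236 CPM, all above SRF, and 2 of its libraries lay above every library of the other groups. SRF-RELA had 71.7, 59.5 and 89.0 CPM, also above SRF. SRF-ICA1L (66.4, 45.5 and 52.8 CPM) and SRF-PDGFRB (41.3 and 37.7 CPM) lay inside the pMSCV range.

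For SRF-FOXO1, the log2 fold change of Bmp4 was 1.89 against pMSCV (SE 0.69, adjusted p = 0.147) and 1.92 against SRF (SE 0.69, adjusted p = 0.204). Against pMSCV it was 3.39 without pMSCV replicate 2, and edgeR then called it (adjusted p = 0.0400, with 2.36% of all genes called). Without SRF-FOXO1 replicate 3 it was 1.22 against pMSCV and 1.25 against SRF. DESeq2 called it against pMSCV with all libraries (1.89, adjusted p = 0.0459). For SRF-RELA, the value was 1.01 against pMSCV (SE 0.68, adjusted p = 0.789), 2.51 without pMSCV replicate 2 and 0.55 without pMSCV replicate 3. Against SRF it was 1.04 (SE 0.68, adjusted p = 0.975), and 0.68 without SRF replicate 3.

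Fst, the activin-binding antagonist, stood at 24.3, 7.63 and 20.4 CPM in pMSCV and at 11.3, 18.2 and 6.80 CPM in SRF. SRF-FOXO1 had 30.3, 38.2 and 46.0 CPM and SRF-PDGFRB 35.9 and 26.4, all above every pMSCV and SRF library. SRF-ICA1L (23.4, 12.3 and 11.7 CPM) and SRF-RELA (20.3, 14.3 and 21.4 CPM) overlapped both controls. The log2 fold change in SRF-FOXO1 was 1.13 against pMSCV (SE 0.43, adjusted p = 0.156) and 1.66 against SRF (SE 0.43, adjusted p = 0.176). DESeq2 called the difference from SRF (1.67, adjusted p = 0.0114). In SRF-PDGFRB it was 0.84 against pMSCV (SE 0.46, adjusted p = 0.725; 0.47 without pMSCV replicate 2) and 1.36 against SRF (SE 0.46, adjusted p = 0.910).

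Separation of 2 groups was also counted without a model, as ranges over libraries that do not overlap in either direction, with the share of all genes beside it. Against pMSCV, 2 of 9 members were separate in SRF-FOXO1 (Inhba and Fst; 23.0% of all genes), 1 in SRF-ICA1L (Inhba; 10.2%), 1 in SRF-PDGFRB (Fst; 15.9%), 1 in SRF-RELA (Inhba; 11.1%) and 0 in SRF (9.16%). Against SRF, 3 were separate in SRF-FOXO1 (Tgfb3, Fst and Bmp4; 35.4% of all genes), 2 in SRF-RELA (Inhba and Bmp4; 10.9%), 2 in SRF-PDGFRB (Tgfb2 lower and Fst higher; 25.7%) and 0 in SRF-ICA1L (7.58%). The 9 log2 fold changes had medians against pMSCV of -0.08 in SRF (2 of 9 above 0), 0.28 in SRF-FOXO1 (6 of 9), -0.12 in SRF-ICA1L (4 of 9), 0.05 in SRF-PDGFRB (5 of 9) and 0.10 in SRF-RELA (6 of 9). Against SRF the medians were 0.36 in SRF-FOXO1 (7 of 9 above 0), 0.37 in SRF-ICA1L (6 of 9), 0.14 in SRF-PDGFRB (7 of 9) and 0.54 in SRF-RELA (8 of 9). Over all genes the medians lay between -0.02 and 0.03, with 47.9% to 53.0% of genes above 0.

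The fusions were also compared with each other in 6 pairs. EdgeR called 0 of the 9 genes in each pair, with 0% to 0.0332% of all genes called. Fst stood higher in SRF-FOXO1 than in SRF-ICA1L by a log2 fold change of 1.27 (SE 0.43, adjusted p = 0.750) and than in SRF-RELA by 1.03 (SE 0.42, adjusted p = 0.965). Bmp4 stood higher in SRF-FOXO1 than in SRF-PDGFRB by 1.77 (SE 0.80, adjusted p = 0.999). Inhba stood higher in SRF-ICA1L than in SRF-PDGFRB by 1.26 (SE 0.53, adjusted p = 0.9999). These 4 values were the ones with an unadjusted p under 0.05, which 5.94% of all genes had for SRF-FOXO1 against SRF-ICA1L, 2.51% for SRF-FOXO1 against SRF-RELA, 3.87% for SRF-FOXO1 against SRF-PDGFRB and 2.20% for SRF-ICA1L against SRF-PDGFRB. For SRF-RELA against SRF-ICA1L (0.159% of all genes) and against SRF-PDGFRB (2.70%) no member had one. DESeq2 was not run on these pairs.

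The Id genes, which encode the inhibitors of E proteins, followed the replicate number in most lines. Id1 stood at 136, 333 and 73.3 CPM in pMSCV replicates 1, 2 and 3, at 125, 219.8 and 76.7 in SRF, at 107, 232 and 73.7 in SRF-ICA1L and at 162, 249.6 and 78.5 in SRF-RELA. In each of these 4 lines replicate 2 was the highest and replicate 3 the lowest. SRF-FOXO1 had 38.6, 173 and 68.7 CPM, again with replicate 2 highest. SRF-PDGFRB went the other way, at 146 and 81.1 CPM in replicates 1 and 2.

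Id3 stood at 88.7, 359 and 82.6 CPM in pMSCV, at 95.0, 161 and 92.0 in SRF, at 81.1, 265 and 103 in SRF-ICA1L and at 139, 264 and 102 in SRF-RELA. SRF-FOXO1 had 106, 170.3 and 150.5 CPM and SRF-PDGFRB 188 and 88.0. Replicate 2 was again the highest in the 5 groups with 3 libraries. Id2 moved over a smaller span, from 49.95 CPM in SRF-FOXO1 replicate 1 to 115 CPM in pMSCV replicate 2, and it too was highest in replicate 2 of those 5 groups. The log2 fold change of Id1 in SRF-FOXO1 against pMSCV was -0.96 (SE 0.67, adjusted p = 0.437), and it ran from -1.75 without SRF-FOXO1 replicate 2 to -0.17 without pMSCV replicate 2.

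**Figure D3:**
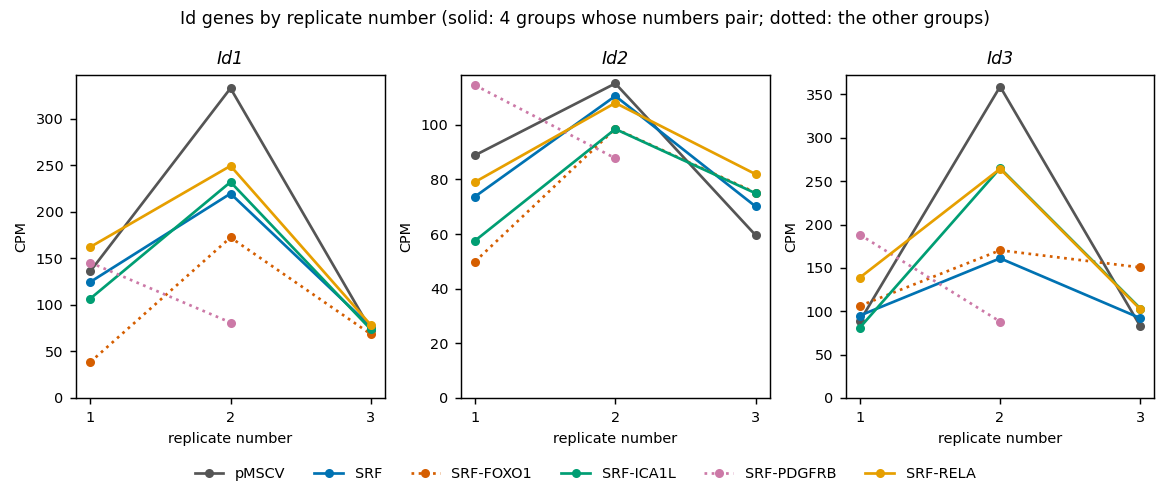
CPM of Id1, Id2 and Id3 (vertical axis, from 0) by replicate number (horizontal axis), a line for each group, solid for the 4 groups whose numbers pair. Replicate 2 is the highest point of every solid line, such as 333 CPM for Id1 in pMSCV.

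In the pMSCV, SRF, SRF-ICA1L and SRF-RELA lines, libraries of the same number deviated together from their group means, with correlations across genes of 0.392 to 0.789. The labels do not say what a replicate number shares. These lines were grouped because their numbers paired in these same counts, and SRF-FOXO1 and SRF-PDGFRB were left out. That choice favours a replicate effect, so the p-values and the variance shares below are descriptive. In these 12 libraries the replicate number was tested beside the group: edgeR called 6 of the 9 genes, and 52.0% of the 14639 genes tested. The 6 were Tgfb1, Tgfb2, Tgfb3, Id1, Id2 and Id3, with adjusted p-values from 7.81e-05 (Id1) and 0.000955 (Id3) to 0.0150 (Tgfb2). Replicate 2 exceeded replicate 1 by a log2 fold change of 0.97 for Id1, 1.37 for Id3, 0.54 for Id2, 0.63 for Tgfb1, 0.98 for Tgfb2 and 1.19 for Tgfb3. Inhba (adjusted p = 0.547), Fst (adjusted p = 0.434) and Bmp4 (adjusted p = 0.449) were not called for replicate number.

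In these 12 libraries, 93.8% of the variance of log2 CPM of Id1 went with replicate number and 2.81% with the group. For Id3 the shares were 82.2% and 5.54%, for Id2 71.5% and 7.49%, for Tgfb1 82.1% and 11.0%, for Tgfb2 62.1% and 6.83%, and for Tgfb3 52.7% and 29.0%. Inhba was the reverse, with 5.31% for replicate number and 60.5% for the group. Without SRF-ICA1L replicate 1, its highest library, Inhba was also called for replicate number, and without SRF replicate 2 so was Fst. Bmp4 (14.0% and 39.9%) also had more with the group, and Fst was even (19.0% and 18.9%). Group has more levels than replicate number in these libraries, so the shares are not like for like. In this fit edgeR did not call a difference among the groups for Inhba (adjusted p = 0.178) or Bmp4 (adjusted p = 0.510). Over all genes the median shares were 49.6% for replicate number and 19.5% for the group. Blocking on replicate number in these libraries, edgeR called 0 of the 9 genes for SRF, SRF-ICA1L or SRF-RELA against pMSCV (0.0137%, 2.99% and 6.48% of all genes), with 0, 1 and 1 members at an unadjusted p under 0.05. It called 0 of them for SRF-ICA1L or SRF-RELA against SRF (0.0956% and 0.656% of all genes), with 2 members each at an unadjusted p under 0.05. The shares of all genes at that unadjusted threshold are not given here for the block, so those member counts have no reference.

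**Figure D4:**
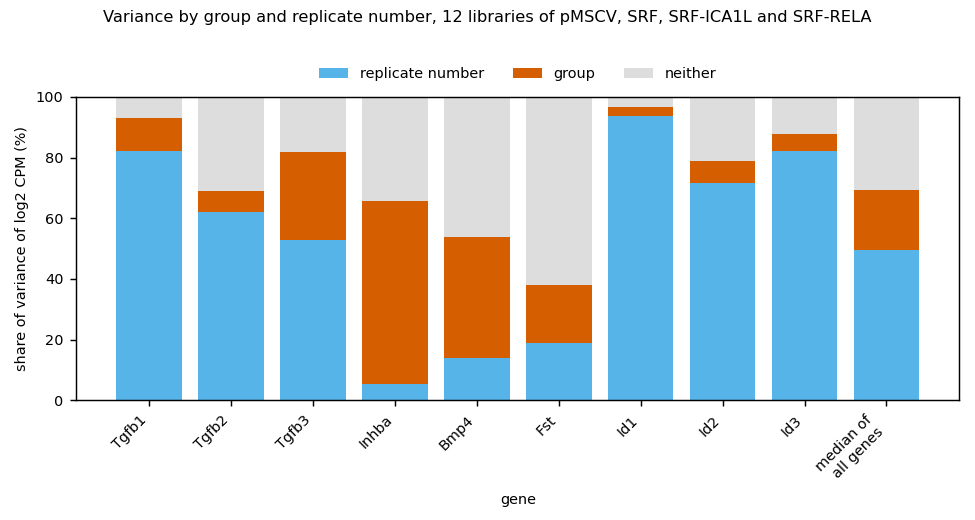
Share of the variance of log2 CPM (vertical axis, percent) carried by replicate number, group and neither in the 12 libraries, for each of the 9 genes and as the median over all genes. Id1 has 93.8% with replicate number, whereas Inhba has 60.5% with the group, for which edgeR did not call it (adjusted p = 0.178).

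Across the 17 libraries, the Id genes varied together, with Pearson r of log2 CPM of 0.82 for Id1 with Id2, 0.76 for Id1 with Id3 and 0.73 for Id2 with Id3. Tgfb1 and Tgfb3 had an r of 0.85. Inhba with Fst had an r of 0.20 and Bmp4 with Id1 one of -0.03. These are descriptions over libraries that share groups and replicate numbers. Among genes with a mean of at least 1 CPM, the closest to Id1 were Trib1 (0.94), Spty2d1 (0.93) and Fes (0.93), to Id2 Klf10 (0.87), Id1 and Cdc42ep4 (0.81), and to Id3 Xbp1, Phf21a and Sertad1 (0.92 each). For Tgfb1 they included Pmp22 (0.96) and Lynx1 (0.94). For Tgfb2 they were Rerg (0.89), Col3a1 (0.88) and Lpl (0.87), and for Tgfb3 the collagen genes Col6a2 (0.98) and Col6a1 (0.97) with Pdgfrl (0.97). For Inhba they were Tnfsf15 (0.89), Rnf149 (0.86) and Rcn2 (0.85), for Fst Nbea (0.87), Wdr41 and Zfp953 (0.80 each), and for Bmp4 Aebp1, Chst7 and Cdhr1 (0.93 each).

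Other genes of the pathway were taken from 7 lists of 82 symbols, of which 67 were in the table. In SRF-FOXO1 against pMSCV, edgeR called 2 of the 67, both higher, while 0.710% of all genes were called. They were Bmpr1a, a receptor kinase for BMPs, and Smad9, a Smad of the BMP branch. Smad9 stood at 1.89, 2.29 and 3.69 CPM in pMSCV and at 7.54, 11.9 and 16.0 CPM in SRF-FOXO1. The groups did not overlap, which held for 23.0% of all genes in either direction. The log2 fold change of Smad9 was 2.17 (SE 0.39, adjusted p = 0.0336). Bmpr1a stood at 135, 138 and 135 CPM in pMSCV and at 247, 193 and 231 CPM in SRF-FOXO1, a log2 fold change of 0.72 (SE 0.13, adjusted p = 0.0336). Neither passed when pMSCV replicate 1 or 3 or SRF-FOXO1 replicate 1 or 3 was left out, or with these groups fitted alone. The count was 7 of 67 without pMSCV replicate 2 (2.36% of all genes) and 3 without SRF-FOXO1 replicate 2. DESeq2 called 11 (9.07% of all genes), and edgeR with replicate number as a block in all 17 libraries called 10. For the counts of 3 and 10, the share of all genes is not given here.

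In the other fusion lines too, both genes stood above pMSCV in every library. Ranges apart from pMSCV, in either direction, were found for 10.2% of all genes in SRF-ICA1L, 15.9% in SRF-PDGFRB, 11.1% in SRF-RELA and 9.16% in SRF. Smad9 had 6.74, 7.28 and 6.64 CPM in the SRF-ICA1L line, 7.05, 7.35 and 9.79 CPM in SRF-RELA, and 10.5 and 4.23 CPM in SRF-PDGFRB. In SRF itself it had 3.45, 5.67 and 5.27 CPM, which overlapped pMSCV. Bmpr1a had 179, 205 and 187 CPM in the SRF-ICA1L line, 171, 225 and 184 CPM in SRF-RELA, and 195 and 192 in SRF-PDGFRB. The SRF libraries had 152, 169 and 162 CPM of Bmpr1a, also above every pMSCV library. Smad6, an inhibitory Smad induced by BMPs, had a log2 fold change in SRF-FOXO1 against pMSCV of 1.93 (SE 0.45, adjusted p = 0.0531). Gdf15, a stress-induced ligand of the family, had one of -2.17 (SE 0.52, adjusted p = 0.0539). The summed myoblast markers were lower in SRF-FOXO1 than in pMSCV, as given above, and their part in these differences was not tested.

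Blocking on replicate number in the same 12 libraries, edgeR called 9 of the 67 genes in SRF-ICA1L against pMSCV (2.99% of all genes) and 13 of 67 in SRF-RELA against pMSCV (6.48% of all genes). With the block in all 17 libraries it called 0 in each, a fit whose share of all genes is not given here. Without the block it also called 0 in each, with 8 genes each at an unadjusted p under 0.05 (6.23% and 8.05% of all genes). DESeq2 called 0 and 2 (0.318% and 0.770% of all genes). With pMSCV and the 1 line fitted alone under the same block, the counts were 0 in SRF-ICA1L (0.136% of all genes) and 8 in SRF-RELA (2.98% of all genes). Bmpr1a, Smad1, Smad9, Grem1, Chrdl1, Ltbp2 and Ldlrad4 rose in both lines, and Gdf15 and Hey1 fell in both. Smad6 and Atoh8 rose, and Smurf1 and Nog fell, in SRF-RELA. These 2 comparisons share the pMSCV libraries. The summed myoblast markers were lower in both lines than in pMSCV, as given above, and their part in these differences was not tested.

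By role, the receptor Bmpr1a rose by a log2 fold change of 0.49 (SE 0.10, adjusted p = 0.0305) in SRF-ICA1L and 0.51 (SE 0.10, adjusted p = 0.0156) in SRF-RELA. Smad9 rose by 1.45 (SE 0.23, adjusted p = 0.0133) and 1.65 (SE 0.23, adjusted p = 0.00402), and Smad1, the Smad of the same branch, by 0.70 and 0.76 (adjusted p = 0.0137 and 0.00585). Smad6 rose by 1.55 (adjusted p = 0.0107) in SRF-RELA, and its value in SRF-ICA1L was 1.10 (adjusted p = 0.0604). Grem1, a secreted BMP antagonist, rose by 1.09 (adjusted p = 0.0133) and 0.93 (adjusted p = 0.0134). Ltbp2, a matrix protein of the latent TGF-beta binding family, rose by 1.16 (adjusted p = 0.00859) and 1.13 (adjusted p = 0.00388). Noggin, the BMP antagonist encoded by Nog, fell by 2.18 on the log2 scale (adjusted p = 0.0219) in SRF-RELA. Levels of Nog were low, at 1.15 to 2.38 CPM in pMSCV and 0.18 to 1.07 CPM in SRF-RELA. The SRF line was similarly low, at 0.32 to 1.002 CPM.

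Among the targets, Hey1, a repressor induced by BMP and Notch signals, fell by 1.65 on the log2 scale (adjusted p = 0.0164) in SRF-ICA1L and by 2.08 (adjusted p = 0.00418) in SRF-RELA. With 1 library left out, its log2 fold changes lay between -1.96 and -1.39 and between -2.39 and -1.84. In the fit of 17 libraries without the block, leaving out 1 gave -3.15 to -0.22 and -3.51 to -0.71. Ldlrad4, a feedback inhibitor of TGF-beta signals, rose by 0.71 (adjusted p = 0.0422) and 0.81 (adjusted p = 0.0158). Gdf15 fell by 1.18 (adjusted p = 0.00860) and by 1.46 (adjusted p = 0.00249). Chrdl1, a chordin-like BMP antagonist, had log2 fold changes of 3.83 and 4.58, but its counts were 0, 0 and 15 in pMSCV, 1, 12 and 180 in SRF-ICA1L and 3, 12 and 364 in SRF-RELA. Its counts rested on replicate 3 in each group, and 2 of the pMSCV libraries had none. Leaving out 1 of the 12 libraries at a time, the count in SRF-ICA1L lay between 3 and 11 and that in SRF-RELA between 7 and 19. The highest, 11 and 19, came without pMSCV replicate 2 (3.66% and 8.08% of all genes). The lowest counts in SRF-ICA1L, 3 each, came without pMSCV replicate 1, SRF-ICA1L replicate 1 or SRF-ICA1L replicate 2. In SRF-RELA, 7 or 8 came without pMSCV replicate 1 or any 1 SRF-RELA library. Without SRF-ICA1L replicate 1, 0.382% of all genes were called in SRF-ICA1L and 5.44% in SRF-RELA. For the rest of the 12 fits, the share of all genes is not given here. Gdf15, Ltbp2 and Chrdl1 were called in both lines in all 12 of these fits, and Smad9, Smad1 and Hey1 in all 12 in SRF-RELA and in 9 in SRF-ICA1L. In SRF-ICA1L Grem1 was called in 9 of the 12, Bmpr1a in 3 and Ldlrad4 in 2. In SRF-RELA Bmpr1a, Smad6, Grem1, Nog and Atoh8 were each called in 9, Ldlrad4 in 8 and Smurf1 in 4.

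**Figure D5:**
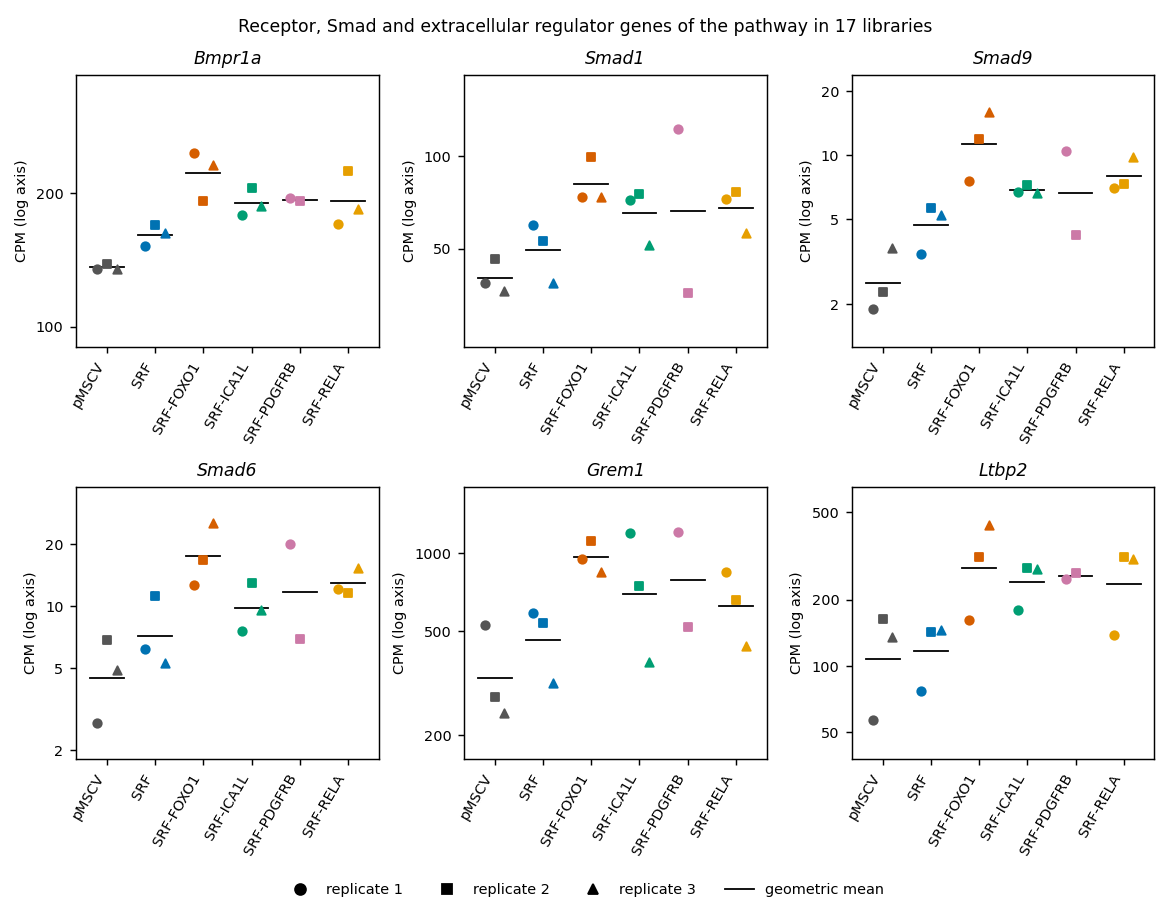
CPM on a log axis of the receptor gene Bmpr1a, the Smad genes Smad1, Smad9 and Smad6 and the extracellular regulator genes Grem1 and Ltbp2 in the 17 libraries, with geometric means as lines. Smad9 lies below 4 CPM in all pMSCV libraries and above it in all libraries of the 4 fusions. The SRF line spans that level, at 3.45 to 5.67 CPM.

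Against SRF with the same block, Ltbp2 was the gene of the 67 called in SRF-ICA1L (1.05, adjusted p = 0.0484, with 0.0956% of all genes called). In SRF-RELA 3 of the 67 were called (0.656% of all genes): Gdf15 (-1.17, adjusted p = 0.0160), Chrdl1 (3.10, adjusted p = 0.0160) and Ltbp2 (1.03, adjusted p = 0.0234). With 1 library left out at a time, these counts lay between 0 and 3 and between 0 and 6. The highest came without pMSCV replicate 2 (0.397% and 2.91% of all genes). Without SRF-ICA1L replicate 1 the shares of all genes were 0% and 0.403%, and for the rest they are not given here. Without the block edgeR called 0 of the 67 in either line against SRF, and DESeq2 called 0 in both. An unadjusted p under 0.05 was found in 2 and 4 of them (1.56% and 3.21% of all genes).

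The lists differed in how much they held. Of the other ligands, 5 of 16 were in the table, and blocking called 1 of them, the fall of Gdf15, in SRF-ICA1L and likewise in SRF-RELA, both against pMSCV. Of the receptors, 12 of 13 were in the table, with a median log2 fold change of 0.13 in SRF-ICA1L and 0.23 in SRF-RELA. Of the Smads and their regulators, all 12 were in the table: 2 rose in SRF-ICA1L, and 3 rose and 1 fell in SRF-RELA. Their medians were 0.32 and 0.23. Of the extracellular regulators, 17 of 18 were in the table: 3 rose in SRF-ICA1L, and 3 rose and 1 fell in SRF-RELA. Of the TGF-beta target genes, all 12 were in the table and 1, Ldlrad4, rose in each line, with medians of 0.36 and 0.36. Of the BMP target genes besides Id1, Id2 and Id3, 6 of 8 were in the table: 1 fell in SRF-ICA1L, and 1 rose and 1 fell in SRF-RELA. Of the E proteins Tcf3, Tcf4 and Tcf12, to which the Id proteins bind, 0 of 3 were called. In each line 1 had an unadjusted p under 0.05, and the share of all genes for that is not given here. In SRF-ICA1L and SRF-RELA the medians were -0.06 and -0.26 for the other ligands and 0.11 and 0.10 for the extracellular regulators. They were 0.004 and 0.06 for the BMP target genes and -0.08 and -0.15 for the E proteins. The medians over all genes were 0.01 in both lines. In SRF-PDGFRB against pMSCV, 0 of the 67 were called by edgeR, with 11 at an unadjusted p under 0.05 (7.70% of all genes), and DESeq2 called 0. The count was 5 with replicate number as a block in all 17 libraries, a fit whose share of all genes is not given here. In SRF against pMSCV edgeR called 0 of the 67, with 5 at an unadjusted p under 0.05 (3.34% of all genes). DESeq2 called 0 (0.0266%). In SRF-FOXO1 against SRF edgeR called 0 of the 67, with 19 at an unadjusted p under 0.05 (19.2% of all genes). DESeq2 called 5 (4.30%). SRF-FOXO1 and SRF fitted alone gave 2 (share of all genes not given here), and 4 with the replicate block (1.57% of all genes). In SRF-PDGFRB against SRF edgeR called 0, with 3 at an unadjusted p under 0.05 (5.03% of all genes). DESeq2 called 0 (0.386%).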

How the data were processed

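RNA from C2C12 lines was sequenced with a stranded kit for polyadenylated RNA. The authors deposited 1 table of raw counts per gene for the 17 libraries. The submitters' processing notes name FastQC 0.11.8, Trimmomatic 0.39, HISAT2, featureCounts and Subread 2.0.0 and the build GRCm38, without roles. The annotation and strand setting are not given in the sources used here. Every gene in the table reached 10 counts in at least 3 libraries.

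Groups and replicate numbers came from the titles. Counts were scaled by TMM and tested with edgeR 4.0.16 (limma 3.58.1, R 4.3.3), robust quasi-likelihood, all 17 libraries in 1 fit with a term for group. Its low-count filter removed no gene. P-values were adjusted by Benjamini-Hochberg within each comparison. The standard error is the log2 fold change divided by the square root of F. The scripts were tested on simulated data, with a required recovery set only for counts far less variable than these. How often true changes would be called at the spread of these libraries is not given here. DESeq2 1.42.0 was an alternative. The numbers pair pMSCV, SRF, SRF-ICA1L and SRF-RELA (12 libraries), since every same-number correlation of deviations exceeded 0.1. SRF-FOXO1 paired with SRF (0.220 to 0.330) and not with all of the others.

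The members and lists were chosen with earlier results of these data known. Named genes are the members, up to 6 called genes per list (with or without the block, by adjusted p), up to 3 more per list by mean CPM, the cell markers, and the 3 genes most like each member by Pearson r. For Tgfb1, 1 of these is not reported here.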

Additional observations from a re-analysis of the deposited data

How the results depend on the processing

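Of the 81 log2 fold changes of members against pMSCV or SRF, 37 kept their sign under every alternative run and 44 changed it under at least 1. The largest of the 44 was 0.67 in size (Id1, SRF-PDGFRB against pMSCV). All 22 member values given singly in the text kept their sign. With RLE size factors, a mean CPM of at least 1 or the block in all 17 libraries, 0 members were called in each comparison. So it was in the 12 paired libraries with or without the block, in each comparison run there. Leaving out the low-count filter repeats the main fit of 17 libraries, where the filter removed no gene, so its calls could not differ. DESeq2 called 1 member in SRF-FOXO1 and 1 in SRF-ICA1L against pMSCV, 2 in SRF-FOXO1 against SRF, and 2 for any difference among the groups. The replicate block in SRF-RELA and pMSCV alone called 1 (Inhba), and it changed no other call of a member. Leaving out 1 library gave 0 to 1 in SRF-FOXO1 against pMSCV and 5 to 7 for replicate number, where 5 came without SRF-RELA replicate 2 (Tgfb2 lost) and 7 without SRF replicate 2 (Fst added) or SRF-ICA1L replicate 1 (Inhba added).

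Leaving out 1 library in the fit with the replicate block was added after seeing the data. Without pMSCV replicate 2, that fit called 1 member, Bmp4, in SRF-ICA1L and in SRF-RELA against pMSCV (3.66% and 8.08% of all genes). It then also called 1, Tgfb3, in SRF-RELA against SRF (2.91% of all genes). Without SRF-ICA1L replicate 1, it called 1, Inhba, in SRF-RELA against pMSCV (5.44% of all genes). In those fits the counts lay between 0 and 1. The log2 fold change of Chrdl1 in SRF-RELA against SRF was 3.21 without the block, -0.84 without SRF-RELA replicate 3 and 6.84 without SRF replicate 3. Leaving out 1 SRF-PDGFRB library leaves 1, assumed to vary like the other groups. The cause of these changes was not tested. Over all genes, DESeq2 called 1363 in SRF-FOXO1 against pMSCV where edgeR called 107, and the replicate block in the 12 paired libraries called 437 in SRF-ICA1L and 949 in SRF-RELA against pMSCV where the fit of 17 libraries called 0. The lowest count of a member in any library was 148 (Tgfb2, SRF-PDGFRB replicate 1).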
